A study of Arabidopsis thaliana with 12 samples.

Results

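The genes described here are the 150 transcripts whose levels varied least in Arabidopsis seedlings over 44 h of constant light, among 1365 nuclear genes with a mean array intensity of 500 or more. They were taken from 13264 nuclear genes named on the array, of which 12987 had a probe set not marked as matching several transcripts. Where a gene had several such probe sets, the brightest on average stood for it. Probe sets to which the annotation gives no gene, or several genes, could not enter. The genes were chosen by the coefficient of variation (CV), the standard deviation of the linear intensities over the 12 arrays divided by their mean, and the 150 lowest were taken. The genes were thus selected on the CV over all 12 arrays. Their small spread and the small size of any rhythm or drift are therefore properties of the selection. The values below describe the genes without a test of constancy.

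All 12 samples were whole seedlings of wild-type Col-0 carrying a CCR2::LUCIFERASE reporter, a light-emitting readout of a clock-regulated promoter. They were entrained by daily light and darkness and then left in constant white light, and 1 array was hybridized for each harvest, every 4 h from 24 h to 68 h of constant light. Every group is therefore 1 harvest with no replicate, and the spread of a gene over the 12 arrays holds differences between times, plants, RNA preparations and arrays together. Circadian time (CT) counts hours from subjective dawn, with CT0 at 24 h and 48 h. Array medians over all probe sets ranged from 149.9 to 153.6. Intensities of different probe sets do not compare amounts of RNA, so each gene is read against its own mean. Of the tissue markers, the leaf genes RCA (7618 to 12782) and LHCB4.2 (1945 to 6951) were bright on all arrays. Of the root genes, PYK10, itself one of the 150, ranged from 9081 to 10840, EXPA18 had a mean of 384.0 and EXPA7 of 206.1, and the named pollen marker AT5G45880 had a mean of 95.1.

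Many transcripts encode parts of machinery that every cell runs at all hours, such as the ribosome, the respiratory chain and the vesicles that move proteins between membranes. Such genes are often called housekeeping genes, and those with steady levels serve as references to which the levels of other transcripts are scaled. In plants the circadian clock sets daily rhythms in transcripts of photosynthesis, growth and stress responses, so a reference used over a day is best taken from genes with little daily change.

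The CV of the 150 genes ran from 2.26% to 4.84%, with a median of 4.32%, beside a median of 8.79% and a highest value of 87.5% in the other 1215 genes. The highest array exceeded the lowest by 1.08-fold to 1.21-fold in the constant genes, with a median of 1.15-fold, while the median in the others was 1.34-fold and the largest ratio 8.99-fold. On every array, 133 of the 150 genes stayed within 10% of their own mean and 5 stayed within 5%. Among the other 1215 genes these numbers were 91 and 0. The genes that varied most were the cold-induced COR15B and COR15A, with CVs of 87.5% and 75%. COR15B ranged from 174.7 to 1570, which is the 8.99-fold ratio given above.

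**Figure D1:**
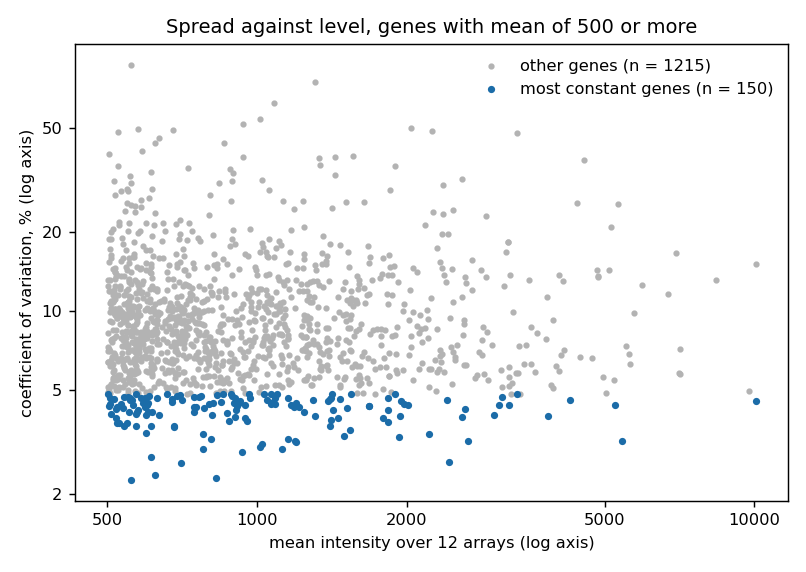
Coefficient of variation in percent against mean intensity over 12 arrays, both on log axes, for the 1365 genes with a mean of 500 or more. The 150 most constant genes (blue) lie at or below 4.84% at every level, and the other 1215 genes (grey) reach 87.5%.

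The limit of the list fell in a dense part of the ranking. AT5G41670 and AT1G67430, each with a CV of 4.83%, and AT5G19440 with 4.84% were just inside, and AT4G01610, AT5G45350 and AT4G37830, all with 4.84%, were just outside. Membership near the limit thus separated genes with no visible difference in spread.

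The steadiest transcript was AT5G11710, with a mean of 557.8, a CV of 2.26% and values from 536.0 at 56 h to 579.3 at 44 h (median 558.7). AT3G55410 ranged from 800.0 at 32 h to 863.3 at 48 h (median 828.4, CV 2.31%). AT5G13810 ranged from 595.2 at 36 h to 647.1 at 44 h (median 625.3, CV 2.36%). The lowest arrays of these 3 genes fell at different times, and AT5G11710 and AT5G13810 shared their highest array at 44 h. AT5G26710 (CV 2.62%), AT4G32470 (2.66%), AT1G76140 (2.77%), AT3G49720 (2.89%), AT2G20360 (2.96%), AT1G62020 (2.96%) and AT3G08930 (3.01%) followed. The annotation used here gives these 10 genes a locus name and no symbol, as it does for 112 of the 150.

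The constant genes were found at all intensities. Divided into 4 equal bins by mean intensity, the 1365 genes contributed 34 of 342 (9.94%), 31 of 341 (9.09%), 44 of 341 (12.9%) and 41 of 341 (12%) from the dimmest bin to the brightest. Over the 5 nuclear chromosomes the share ran from 9.6% on chromosome 1 to 12% on chromosome 4, beside 11% of all 1365 genes. Of the pairs of neighbouring genes in the TAIR10.1 gene order that both had a mean of 500 or more, 75 held no constant gene, 17 held 1 and 1 held both. That pair was AT3G02080 and AT3G02090, which is MPPBETA, a subunit of the peptidase that trims proteins imported into mitochondria.

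The brightest constant probe set was that of PYK10, a beta-glucosidase stored in the ER bodies of roots. It ranged from 9081 at 64 h to 10840 at 52 h (median 10012, CV 4.52%). TPI, the glycolytic triosephosphate isomerase, ranged from 5140 at 32 h to 5717 at 40 h (median 5420, CV 3.19%). MSRB5, a methionine sulfoxide reductase that repairs oxidized proteins, ranged from 2958 at 36 h to 3475 at 60 h (median 3229, CV 4.39%). The 10 brightest also held AT5G15200, AT1G52300, AT4G27090, AT1G67430, AT3G02080, AT4G16720 and AT5G64400. Of these 10 genes, 5 had their lowest value at 28 h and 5 had their highest at 40 h. Among all the constant genes, 8.67% had their lowest value at 28 h, beside 12.8% of the other genes. The highest value fell at 40 h in 13.3% of all the constant genes and in 6.17% of the others. The array at 28 h was the single array of scan day 3 and was also at CT4. The parts of scan day and circadian time in these counts were not tested.

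On each array the median of the 150 genes lay between 99.3% and 101% of their own means. The number above their own mean was lowest at 36 h (62 of 150) and highest at 60 h (92 of 150). In the other 1215 genes the median was 97.7% of their own means at 36 h and 101% at 60 h. The array at 36 h held the lowest value of 25 of the 150 genes (16.7%) and of 14.9% of the other 1215. The array at 40 h held the highest value of 20 (13.3%) and of 6.17% of the others. The arrays had been scanned on 3 days. The median of the 150 genes was 99.74% on the 7 arrays of day 1, 100.7% on the 4 arrays of day 2 and 99.9% on the single array of day 3. In the other 1215 genes it was 99.34%, 101.1% and 99.88%. Day 2 held the last 4 harvests, so scan day and time in constant light cannot be told apart there. Within day 1 the median CV was 4.21% in the constant genes and 8.7% in the others, and within day 2 it was 3.11% and 6.44%.

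**Figure D2:**
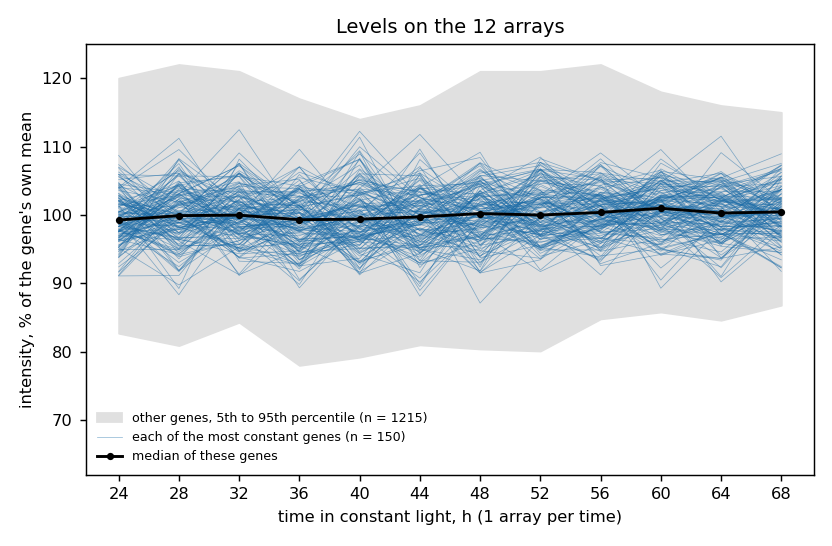
Intensity as a percent of each gene's own mean against hours in constant light, with 1 array per time. Blue lines are the 150 constant genes, the black line is their median, and the grey band spans the 5th to 95th percentile of the other 1215 genes. The median stays between 99.3% and 101%, and the lines stay between 87.1% and 112%.

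Harvests 24 h apart share a circadian time, and 6 such pairs could be formed. The median change between the 2 arrays of a pair, taken without sign, was 3.37% to 4.59% in the constant genes and 6.92% to 8.22% in the others. The pair of 36 h and 60 h showed 93 of 150 genes higher in the second cycle, the largest number of the 6 pairs, and the pair of 32 h and 56 h showed 75. The median of the other 1215 genes also rose, from 97.7% of their own means at 36 h to 101% at 60 h.

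A curve with a 24-h period and a linear drift was fitted to the log2 values of 8972 genes with limma. None of the 150 genes had an adjusted p below 0.05 for rhythm (limma, Benjamini-Hochberg), beside 301 of the other 1215 genes and 11.4% of all tested genes. None of the 150 had an unadjusted p below 0.05 (limma), beside 43.3% of the other 1215 genes and 27.1% of all tested genes. The fitted peak was 1.01-fold to 1.13-fold above the trough, with a median of 1.06-fold, against a median of 1.13-fold over all tested genes. For drift, none of the 150 genes and 0.0446% of the tested genes had an adjusted p below 0.05 (limma). These counts follow from choosing genes of small spread and are given as description. limma draws each gene's residual variance toward that of all genes, and the median residual SD of the constant genes was 0.057 on the log2 scale. Tested with each gene's own residual variance instead, 4 of the 150 genes had an adjusted p below 0.05 for rhythm, beside 6.93% of all tested genes. In limma on linear intensities 6 did so, beside 10.3%. That fit drew all genes toward a common variance, although the linear SD was larger in brighter genes. The count in these bright genes and the share over all tested genes are therefore not like for like. With own variances and an unadjusted p below 0.05 the counts were 19 of 150 for rhythm, beside 25.4% of all tested genes, and 10 of 150 for drift, beside 12.4%.

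Those 4 genes were AT2G04520, AT1G54320, ARA6 and PAHX. AT2G04520 ranged from 863.1 to 983.1 (median 932.3), with its lowest values at 36 h and 64 h and its highest at 28 h and 52 h. Its fitted log2 amplitude was 0.086 ± 0.032 (SE), with a peak at CT2.4, and its adjusted p was 0.195 in limma and 0.0243 with its own variance. AT1G54320 ranged from 815.2 to 927.8 (median 869.2), with an amplitude of 0.078 ± 0.032 and a peak at CT5.23. ARA6, an endosomal Rab GTPase, ranged from 543.6 to 603.0 (median 571.1), with an amplitude of 0.069 ± 0.030 and a peak at CT7.72. PAHX, a phytanoyl-CoA hydroxylase of fatty acid breakdown, ranged from 768.1 to 882.3 (median 816.3), with an amplitude of 0.078 ± 0.031 and a peak at CT7.65. All 4 fitted peaks fell in the subjective day. By limma the 5 smallest p-values for rhythm were those of AT2G04520, PAHX, AT1G54320, AT3G02360 and VPS46.2, the last 2 with adjusted p of 0.262 and 0.263, and that of ARA6 was larger (adjusted p 0.284). For drift the smallest limma adjusted p was 0.42, for AT3G56310, whose log2 level changed by 0.08 ± 0.04 (SE) per day.

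Among the constant genes, 38 carry a symbol or name in the annotation, of 297 such genes with a mean of 500 or more (12.8%). They were sorted by hand into roles with the ranking known, so the counts by role describe these genes and carry no test. Vesicle and membrane traffic had 6 of its 11 named genes in the list and a median CV of 4.8%. RNA, translation and chromatin had 7 of 17 (median CV 5.5%), and central carbon metabolism and mitochondria had 6 of 18 (5.69%). Protein folding, cleavage and turnover had 6 of 30, and redox and detoxification 3 of 21. Photosynthesis and chlorophyll had 0 of 30 (median CV 11.8%), cell wall and expansion 0 of 15 (13%), and the cytoskeleton 0 of 11 (7.64%). Genes outside the list had the larger spread over the same 12 arrays, and that spread holds any rhythm. Their rhythm counts are therefore also shaped by the selection and carry no test. Among them, limma called a rhythm (adjusted p below 0.05) in 82 of 259 named genes (31.7%). They were 14 of 30 in photosynthesis, 8 of 15 in the cell wall group, 7 of 14 in cold and drought, 7 of 18 in redox, 5 of 24 in protein turnover, 3 of 11 in the cytoskeleton, 3 of 10 in RNA and chromatin, 1 of 12 in carbon metabolism, 0 of 5 in traffic and 34 of 120 elsewhere.

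**Figure D3:**
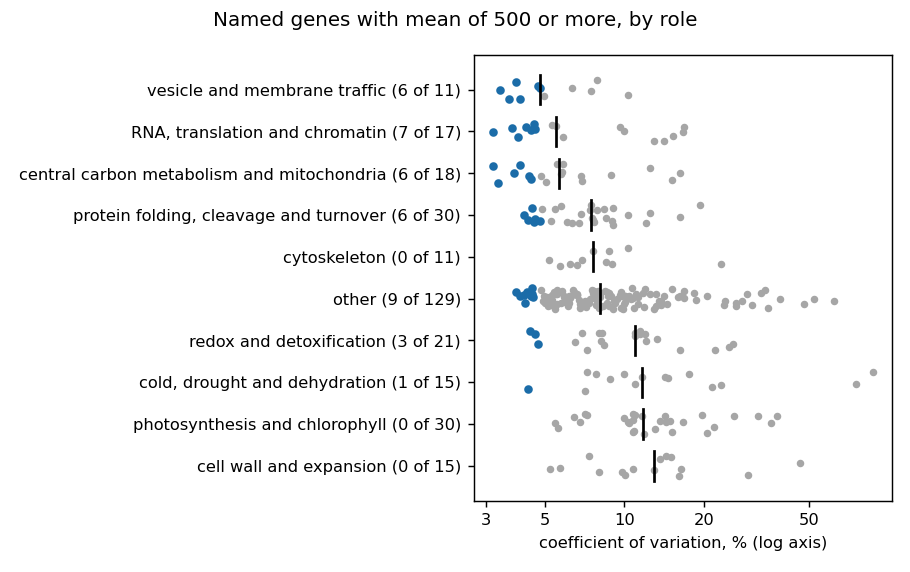
Coefficient of variation in percent, on a log axis, of the 297 named genes with a mean of 500 or more, by role. Blue points are constant genes, grey points the others, black bars the group medians, and the counts in brackets are constant genes of all named genes. Vesicle traffic has the lowest median, 4.8%, and the cell wall group the highest, 13%.

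The traffic genes cover several steps between the ER, the Golgi and the vacuole. RAB6A, a Golgi Rab GTPase, ranged from 735.7 at 44 h to 811.6 at 32 h (median 784.0, CV 3.38%). AT4G24550, which the gene table also names AP4M, the medium subunit of an adaptor that selects cargo, ranged from 530.3 to 604.2 (median 568.7, CV 3.65%). ATRER1A, which returns ER proteins from the Golgi, ranged from 490.8 to 552.5 (median 521.9, CV 3.89%). These 3 genes stayed within 7% of their means on every array. VPS46.2, of the machinery that sorts membrane proteins into the vacuolar path, had a CV of 4.71%, and YKT61, a membrane fusion SNARE, had 4.8% with its lowest value, 862.1, at 36 h. Another gene of the VPS46.2 machinery, SNF7.2, had a CV of 10.3% and was not in the list.

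In RNA and chromatin, PGY1, a protein of the large ribosomal subunit, ranged from 2522 at 52 h to 2781 at 40 h (median 2660, CV 3.18%). The RNA-binding ATRBP45C ranged from 1673 at 24 h to 1900 at 60 h (median 1862, CV 3.76%), and its relative RBP45B had a CV of 4.57%. HTB4, a histone H2B, ranged from 1756 at 44 h to 2049 at 32 h (median 1939, CV 3.98%). ATRBP45C was low at 24 h and at 32 h (1720) and at 1824 or more on the other arrays, and for HTB4 a single array, at 44 h, set the bottom of the range. CHC1 of a chromatin remodelling complex (4.25%), MAC3B of a spliceosome-associated complex (4.45%) and the translation helicase EIF4A-2 (4.6%) completed the group. EIF4A-2 reached 1640 at 44 h against a median of 1459. The splicing factor subunit ATU2AF35A, in contrast, had a CV of 15.3% and a limma adjusted p for rhythm of 0.0216.

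In mitochondria and central metabolism, FRO1, a subunit of respiratory complex I, ranged from 1406 at 44 h to 1574 at 52 h (median 1500, CV 3.34%). ACLA-1, a subunit of the ATP citrate lyase that makes cytosolic acetyl-CoA, ranged from 1347 at 60 h to 1532 at 24 h (median 1390, CV 3.83%). SDH1-1, the flavoprotein of succinate dehydrogenase, ranged from 763.3 at 56 h to 869.0 at 24 h (median 810.8, CV 4.02%). Other genes of the last 2 enzymes varied more, ACLA-2 with a CV of 5.88%, ACLB-1 with 8.94% and SDH2-1 with 12.5%. None of them had a limma adjusted p below 0.05 for rhythm (0.851, 0.104 and 0.129). MPPBETA (4.36%) and IDH-V, a subunit of the mitochondrial isocitrate dehydrogenase (4.42%), were the remaining members.

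**Figure D4:**
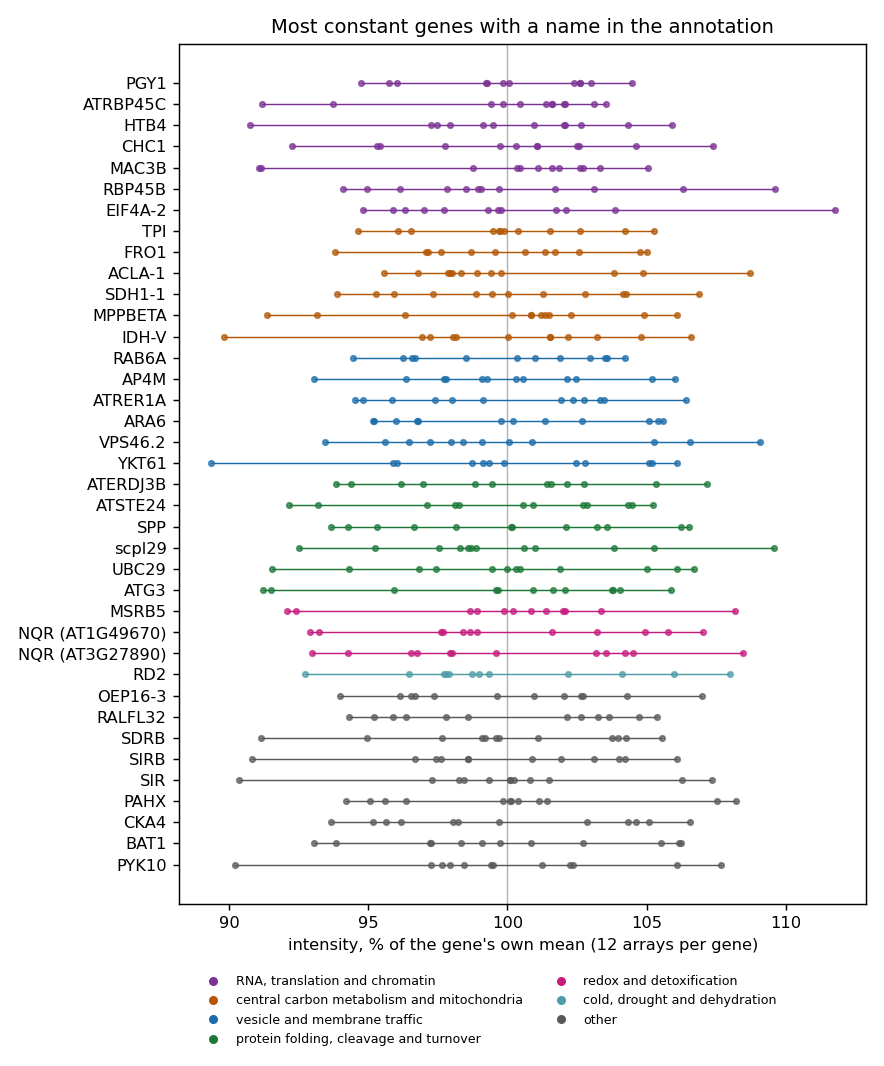
Intensity on each of the 12 arrays as a percent of the gene's own mean, for the 38 constant genes with a name, coloured by role and ordered by rank within a role. Each dot is 1 array and each line spans lowest to highest. EIF4A-2 reaches the farthest from its mean, 11.8%, and PGY1 stays within 5.23%.

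Protein turnover was represented by ATERDJ3B, a co-chaperone of the ER (852.1 to 973.2, CV 4.17%), and by ATSTE24, a protease for prenylated proteins (464.4 to 530.2, CV 4.32%). SPP, a signal peptide peptidase (4.46%), the carboxypeptidase-like scpl29 (4.56%), the ubiquitin-conjugating UBC29 (4.59%) and ATG3 of autophagy (4.8%) followed. The redox group held MSRB5 and both genes with the symbol NQR, AT1G49670 (4.6%) and AT3G27890 (4.73%), which the annotation names alike. The remaining named genes included both SIR, the sulfite reductase of sulfur assimilation, and SIRB, which makes the siroheme cofactor that SIR carries. SIR ranged from 1096 at 36 h to 1302 at 68 h (median 1214, CV 4.29%). SIRB ranged from 473.8 at 64 h to 553.5 at 44 h (median 520.3, CV 4.23%), so the extremes of the 2 genes fell at different times. RD2, whose name records a response to desiccation, was the 1 constant gene of 15 in the cold, drought and dehydration group, with values from 1099 to 1280 (CV 4.31%), in the group that also holds COR15A and COR15B. OEP16-3, of a family of organelle membrane channels (3.91%), RALFL32, a secreted signalling peptide (4.03%), SDRB, a short-chain reductase (4.18%), BAT1, an acyltransferase of brassinosteroid metabolism (4.48%) and AT2G23070, a casein kinase subunit also named CKA4 (4.48%), were the others.

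Of 19 loci in common use as references, 10 were named here, and the 4 of these with a mean of 500 or more were not in the list. The other loci could not have entered it. GAPC2, a cytosolic glyceraldehyde-3-phosphate dehydrogenase, ranged from 6266 to 7629 (median 7124, CV 5.8%) and ranked 304 of 1365. AT5G46630, also named AP2M, ranged from 593.8 to 747.9 (CV 6.37%, rank 398). PEX4, a ubiquitin-conjugating enzyme of peroxisomes (CV 7.53%), ranked 582 and AT4G33380 (CV 8.17%) ranked 684. Below the intensity limit, AT2G28390 ranged from 295.5 to 336.6 with a CV of 3.75% and AT5G15710 from 177.8 to 205.4 with 4.79%, both under the 4.84% that closed the list. AT4G26410 (5.24%), AT4G34270 (5.8%), AT2G32170 (7.05%) and AT5G12240 (12.6%) were above it.

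A second probe set was a measure of the same transcript that the ranking did not use, and 1 constant gene had one. The other probe set of SDRB had a mean of 493.7 and a CV of 6.92%, against 4.18% for the one chosen. In the other genes, 14 second probe sets had a median CV of 12.2%, at a median intensity of 286.4, and the 2 of them with a mean of 500 or more had a median CV of 8.62%. Of the array's own controls with a mean of 500 or more, 17 probe sets for Arabidopsis genes had a median CV of 4.85%. Of these 7 lay at or below the 4.84% that closed the list, all for ubiquitin or actin, and the lowest, for ubiquitin, had 2.89%. The 15 for bacterial and phage transcripts had a median of 16.6%.

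Which genes made the list depended on the arrays used for those near its limit. With each array left out in turn, 117 to 136 of the 150 genes stayed in the list, and 102 stayed whichever array was left out. Of the 38 named genes 28 did so, while VPS46.2 stayed in 7 of the 12 lists, YKT61 in 4 and ATG3 in 3. The 13 steadiest genes, down to PGY1, stayed under every alternative ranking except a higher intensity limit, which removes dim genes by design. In all, 33 genes did so, and 5 of them carry a name, PGY1, FRO1, AP4M, ATRBP45C and ACLA-1.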

How the data were processed

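The intensity table deposited by the authors holds linear values of 22810 probe sets on 12 Affymetrix ATH1 arrays, already on a common scale. MAS5 stands in the submitters' notes and dChip in the study's methods, and the origin of the table is not given in these sources. The deposited array records hold other information, of which the scan day was taken. Gene names came from the platform annotation in GEO, joined to RefSeq's table for TAIR10.1: 13513 carry 1 gene, 13436 of them matched by gene ID and 48 by locus name, 503 carry several genes, and 64 are controls. The other probe sets carry no gene name there. All sample columns were used.

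Intensities below 1 were set to 1 before log2. Probe sets in the upper 69% of mean log2 intensity were kept, 1 per gene and without names ending in _s_at or _x_at, which left 8972 genes. The model, fitted by limma 3.58.1 under R 4.3.3, had sine and cosine terms of 24-h period plus a linear trend, tested by the moderated F-test for rhythm and the moderated test of the trend term, with Benjamini-Hochberg adjustment over all genes at 0.05. Fit and ranking were also run on simulated data. The added rhythms were larger than any fitted in the constant genes, and the simulated constant genes were given a spread below theirs. The simulation therefore does not cover rhythms this small or ranking near the limit of the list. Since each time had 1 array, the p-values rest on deviations from the fitted curve, and precision is limited by the 12 arrays. The members, roles and lists were chosen with earlier results of these data known. Named genes are the 10 steadiest, the 10 brightest, the reference list, those at the limit, those with the smallest p-values and, chosen after their values were seen, all members with a name and some of their relatives. A keyword sorting of functions found almost no annotation text and was replaced by sorting by hand. Promoter and protein sequences were not used here. Python 3.11.15, numpy 2.4.6, pandas 2.3.3 and matplotlib 3.10.9 did the rest.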

Additional observations from a re-analysis of the deposited data

How the results depend on the processing

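The rhythm count among the 150 genes was 0 and became 6 on linear intensities (923 of 8972 genes called), 4 with each gene's own residual variance and 19 with that variance and an unadjusted p, both added after seeing the data; it was 0 under the other alternatives, with 0 to 0 whichever array was left out. The drift count among them was 0, became 10 with own variances and an unadjusted p, and was 0 otherwise, 0 to 0 with arrays left out. Over all 8972 genes the rhythm count of 1023 became 2433 at an unadjusted p of 0.05, 622 with own variances (2281 unadjusted) and 630 with no intensity filter, and 656 (without 56 h) to 1075 (without 40 h) with an array left out. The drift count of 4 became 1178 unadjusted, 10 with own variances (1110 unadjusted), 11 on linear intensities, 12 on log2 of the intensity plus 32, 9 after quantile normalization, 2 with no filter, 2 with probe sets ending _s_at or _x_at, 0 with scan day as a block, and 0 to 9 with an array left out. Of the 150 genes, 77 stayed in the list ranked by the median absolute deviation over the median, 55 of 150 with a mean limit of 250 (3551 genes ranked), 63 with a limit of 1000 (all 63 that reach it), and 91 on the arrays of scan day 1; the other rankings kept 105 to 150, and leaving out an array 117 to 136. The cause of these shifts was not tested, apart from the intensity limits, which change the genes ranked. No paired analysis was possible because each group holds 1 array and no replicate number joins groups; the 6 pairs of arrays 24 h apart are cycles, described in the text with no test.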
